A study of Homo sapiens with 4 samples.

Results

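The 8 genes described here share a pattern at a pair of splice acceptors: GAS8, CCNYL1, APPL2, RHNO1, SETD4, ARMH4, C1D and COPS2. An acceptor is the 3′ end of an intron, and each gene holds 2 acceptors lying 10 to 30 nt apart that are joined to the same donor, the 5′ end of the intron. The upstream share is the percent of the pair's uniquely mapped junction reads that used the acceptor nearer the donor. The genes were chosen by this share, which stood higher in the R625H library than in the WT, K666T and K700E libraries, so those differences are a description and carry no test. Of 21532 such pairs with at least 20 reads in each library, 2868 were read at both acceptors in all 4 libraries and had an annotated downstream acceptor. In 10 of the 2868 (0.349%) the share was called higher in R625H than in each other library, with a difference of at least 10 percentage points and a Benjamini-Hochberg adjusted p under 0.05 in a two-sided Fisher's exact test. These 10 pairs hold the 8 described here, a further C1D pair and a pair in CHURC1.

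The cells were HEK293T, a human embryonic kidney line, transfected with a vector for SF3B1: the wild-type protein (WT) or the substitution R625H, K666T or K700E. Plasmid amounts were 1000 ng for R625H and K666T and 2000 ng for K700E per the labels, while for WT the sources used here name no amount. Mutation and plasmid amount therefore cannot be told apart in comparisons with K700E, nor, since its amount is unknown, with WT. Each vector had 1 library, so no difference has a replicate check, each test compares libraries rather than conditions, and intervals cover counting error only. Transfected cells still carry their own SF3B1 gene, and the share of cells that took up the vector was not analysed here.

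SF3B1 is the largest subunit of SF3b, the part of the U2 snRNP that holds the branch point adenosine of an intron in the first steps of spliceosome assembly. The acceptor is then chosen downstream of that branch point, usually at the next AG. Cancer-associated substitutions in the HEAT repeats of SF3B1 are known for use of cryptic acceptors a short way upstream of the usual one, which adds intron bases to the mRNA.

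Libraries held 82254731 to 90939945 reads on genes and 66015665 to 72034388 uniquely mapped junction reads. Unmapped pairs made up 8.84% in WT and 15.2 to 17.3% in the mutant libraries, and the part of this difference in the results was not tested. SF3B1 itself had log2 ratios to WT of 0.03, 0.04 and 0.02 in R625H, K666T and K700E, and whether vector reads count towards the gene was not tested. Of the markers of this line, VIM had 521 to 660 CPM (counts scaled to library size), CDH2 115 to 124, KRT8 162 to 180, KRT18 64.9 to 74.0, NEFM 329 to 428 and PAX2 1.75 to 2.65. The leukocyte, liver, erythroid and muscle markers PTPRC, ALB, HBB and MYH7 were at or under 0.422 CPM in each library.

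The sequences around the acceptors are shown for the 3 genes in which an annotated GENCODE 29 transcript (GRCh38) holds them. Positions are those of the hg19 junctions in the files, bases run 5′ to 3′ on the gene's strand, and the capitals mark the AG at the acceptor. For GAS8 (plus strand), the first line below is the 30 bases ending at the upstream acceptor, chr16:90106664-90106693, and the second is the bases added to the mRNA when it is used, chr16:90106694-90106707.
GAS8 before the upstream acceptor: caggtgaggggcctcatcgcccacccccAG
GAS8 between the acceptors: cgctgtccctacAG
For RHNO1 (plus strand) the same windows are chr12:2994399-2994428 and chr12:2994429-2994448.
RHNO1 before the upstream acceptor: tggggaatcatctgaattatttgctcccAG
RHNO1 between the acceptors: cttttgtttcttctctacAG
For APPL2 (minus strand) the bases between the acceptors are chr12:105601808-105601825.
APPL2 between the acceptors: atgtctgtttatttttAG
Each upstream window of GAS8 and RHNO1 held 16 pyrimidines in 30 bases, and GAS8 held 5 A and RHNO1 7 A. The median of 974 pairs of the 2868 whose window could be read in the same way was 17 pyrimidines and 6 A. Between the acceptors, pyrimidines made up 16 of 20 bases in RHNO1, 9 of 14 in GAS8 and 12 of 18 in APPL2. Pyrimidines between the acceptors were not counted for other pairs. Sequences of the other 5 pairs were not analysed here.

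Across the 8 pairs the upstream acceptor took a median of 22.4% of reads in R625H, from 12.7% to 32.5%, against medians of 1.26% in WT, 4.70% in K666T and 4.61% in K700E. WT was lowest at each of the 8, and R625H was highest at each by the rule that chose them. The WT median was also the lowest over the 2868 pairs, at 1.52% against 2.55 to 3.18% in the mutant libraries. That rule also made it likely that the R625H 95% Wilson interval would lie above those of the other libraries, as it did in 8 of 8. For R625H above WT alone, 14.1% of the 2868 pairs had such intervals. The ratio of R625H to WT ran from 3.79 in SETD4 to 36.6 in COPS2. Each upstream acceptor was read in all 4 libraries, which the choice of pairs required, so whether an acceptor was private to R625H cannot be read from these pairs.

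**Figure D1:**
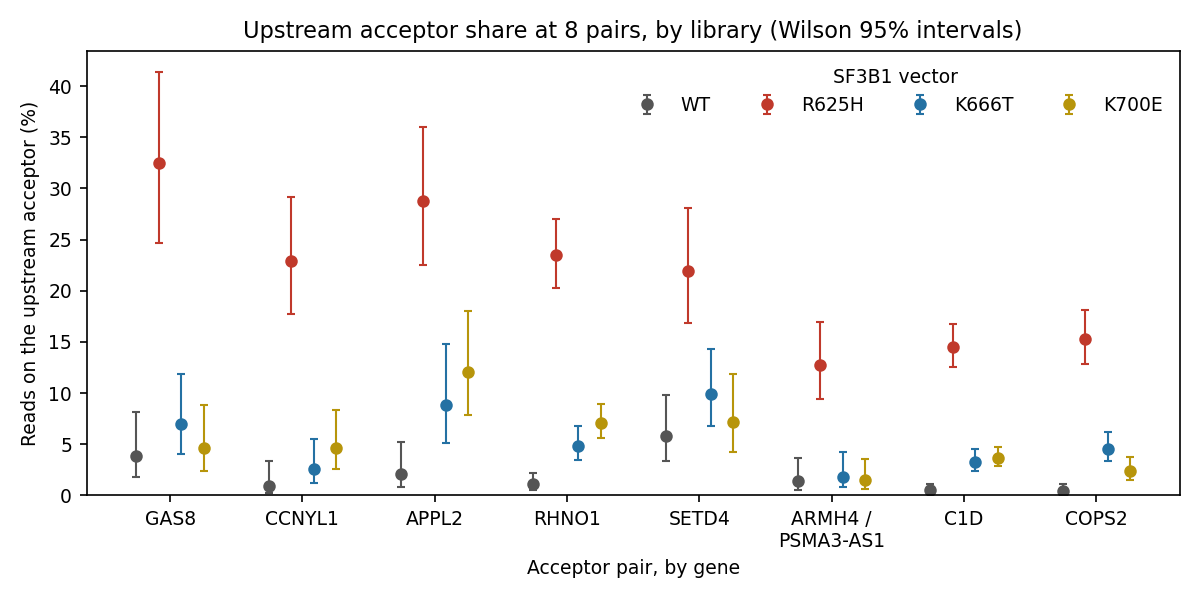
Percent of reads on the upstream acceptor (vertical axis) at the 8 pairs (horizontal axis) in the WT, R625H, K666T and K700E libraries, as points with Wilson 95% intervals from read counts. The R625H points run from 12.7% to 32.5% and lie above those of the other 3 libraries at each pair, as the rule that chose the pairs required.

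GAS8 encodes a subunit of the nexin-dynein regulatory complex, the link between microtubule doublets in motile cilia. Its upstream acceptor at chromosome 16 position 90106693, 14 nt before the annotated acceptor of exon 9 of 11, took 6 of 156 reads in WT, 38 of 117 in R625H, 12 of 171 in K666T and 8 of 174 in K700E. These are shares of 3.85% (1.77 to 8.14), 32.5% (24.7 to 41.4), 7.02% (4.06 to 11.9) and 4.60% (2.35 to 8.81). R625H stood 25.5 points above the highest other library, the widest margin of the 8, and the intervals of WT, K666T and K700E overlapped.

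RHNO1 encodes a protein that binds the 9-1-1 clamp and promotes signalling by the checkpoint kinase ATR. Its upstream acceptor (chromosome 12, position 2994428, 20 nt before the downstream one) is annotated and lies at exon 2 of 3 in the annotated transcript used, where the start codon follows 84 nt after the downstream acceptor, so the added bases fall in the 5′ UTR. It took 7 of 651 reads in WT, 140 of 597 in R625H, 31 of 639 in K666T and 65 of 913 in K700E. The shares were 1.08% (0.522 to 2.20), 23.5% (20.2 to 27.0), 4.85% (3.44 to 6.80) and 7.12% (5.62 to 8.97). R625H was far above the rest, and K666T and K700E both lay above WT with overlapping intervals of their own.

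APPL2 encodes an adaptor of early endosomes that binds RAB5. Its upstream acceptor (chromosome 12, position 105601826, 18 nt before the other) is annotated and ends an intron of 110 nt, the shortest among the 8. It took 4 of 194 reads in WT, 49 of 170 in R625H, 12 of 136 in K666T and 19 of 158 in K700E. The shares were 2.06% (0.805 to 5.18), 28.8% (22.5 to 36.0), 8.82% (5.12 to 14.8) and 12.0% (7.84 to 18.0). The K700E share of APPL2 was the highest that library reached at a member pair.

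CCNYL1 encodes a relative of cyclin Y, which activates kinases of the CDK14 and CDK16 group. Its upstream acceptor (chromosome 2, position 208611755, 15 nt) took 2 of 213 reads in WT, 47 of 205 in R625H, 6 of 233 in K666T and 10 of 216 in K700E. The shares were 0.939% (0.258 to 3.36), 22.9% (17.7 to 29.1), 2.58% (1.19 to 5.50) and 4.63% (2.53 to 8.31). R625H stood 18.3 points above K700E, and the other 3 intervals overlapped.

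SETD4 encodes a SET domain methyltransferase. Its upstream acceptor (chromosome 21, position 37416268, 13 nt) had the highest WT share of the 8: 12 of 207 reads, or 5.80% (3.35 to 9.86). It took 45 of 205 reads in R625H, 24 of 242 in K666T and 13 of 182 in K700E, which are 22.0% (16.8 to 28.1), 9.92% (6.76 to 14.3) and 7.14% (4.22 to 11.8). SETD4 thus combined the smallest ratio to WT with a margin of 12.0 points over K666T.

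C1D encodes a cofactor of the nuclear RNA exosome, and its pair was among the most deeply read. The upstream acceptor (chromosome 2, position 68274469, 17 nt) took 5 of 1008 reads in WT, 152 of 1046 in R625H, 36 of 1104 in K666T and 58 of 1574 in K700E. The shares were 0.496% (0.212 to 1.16), 14.5% (12.5 to 16.8), 3.26% (2.36 to 4.48) and 3.68% (2.86 to 4.73). Another C1D acceptor 4 nt beyond the downstream one was read 25, 22, 28 and 50 times in WT, R625H, K666T and K700E, and its pairing with the upstream one 21 nt away is the further C1D pair that met the rule.

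COPS2 encodes a subunit of the COP9 signalosome, which removes NEDD8 from cullins. Its upstream acceptor (chromosome 15, position 49420971, 13 nt) took 4 of 956 reads in WT, 112 of 732 in R625H, 37 of 813 in K666T and 17 of 728 in K700E. The shares were 0.418% (0.163 to 1.07), 15.3% (12.9 to 18.1), 4.55% (3.32 to 6.21) and 2.34% (1.46 to 3.71). COPS2 had the lowest WT share and, at 10.7 points, the smallest margin of the 8.

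The pair named for ARMH4 (chromosome 14, position 58758441, 15 nt) lies where ARMH4 and the long non-coding RNA gene PSMA3-AS1 overlap. In the annotation its downstream acceptor belongs to 10 transcripts of PSMA3-AS1 and to 1 ARMH4 transcript without a coding part, so the reads could not be assigned to ARMH4. The upstream acceptor took 4 of 278 reads in WT, 39 of 306 in R625H, 5 of 273 in K666T and 5 of 328 in K700E. The shares were 1.44% (0.561 to 3.64), 12.7% (9.47 to 16.9), 1.83% (0.785 to 4.22) and 1.52% (0.653 to 3.52). This was the pair at which K666T and K700E stood closest to WT, within 0.393 and 0.0855 points.

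K666T and K700E were numerically above WT at 8 of 8 pairs. The part of the 2868 pairs with that order is not given here. Their median shares also rose, from 1.52% in WT to 2.55% in K666T and 2.61% in K700E. Because membership caps these shares below that of R625H, they are given without a test. The K666T interval lay above the WT interval in 3 of 8 pairs (RHNO1, C1D and COPS2), against 9.38% of the 2868 pairs. The K700E interval did so in 4 of 8 (the same 3 and APPL2), against 9.94%. RHNO1, C1D and COPS2 were the most deeply read, with 597 to 1574 reads a library against 117 to 328 at the other members. Their intervals were therefore narrower. At APPL2, K666T stood 6.76 points above WT with overlapping intervals, against 3.78 points at RHNO1, so the split does not rank the genes by size of change. The K666T and K700E intervals overlapped at 8 of 8 pairs, and 0 of 8 were called apart, where 0.767% of the 2868 were, and K666T was the higher in 4 of 8. At pairs that were called higher in all 3 mutant libraries than in WT, 47 in number, the median shares were 3.69% in WT, 26.9% in K666T, 22.8% in K700E and 29.3% in R625H. At the members the R625H median was of similar size to that, while K666T and K700E medians were under 5%.

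**Figure D2:**
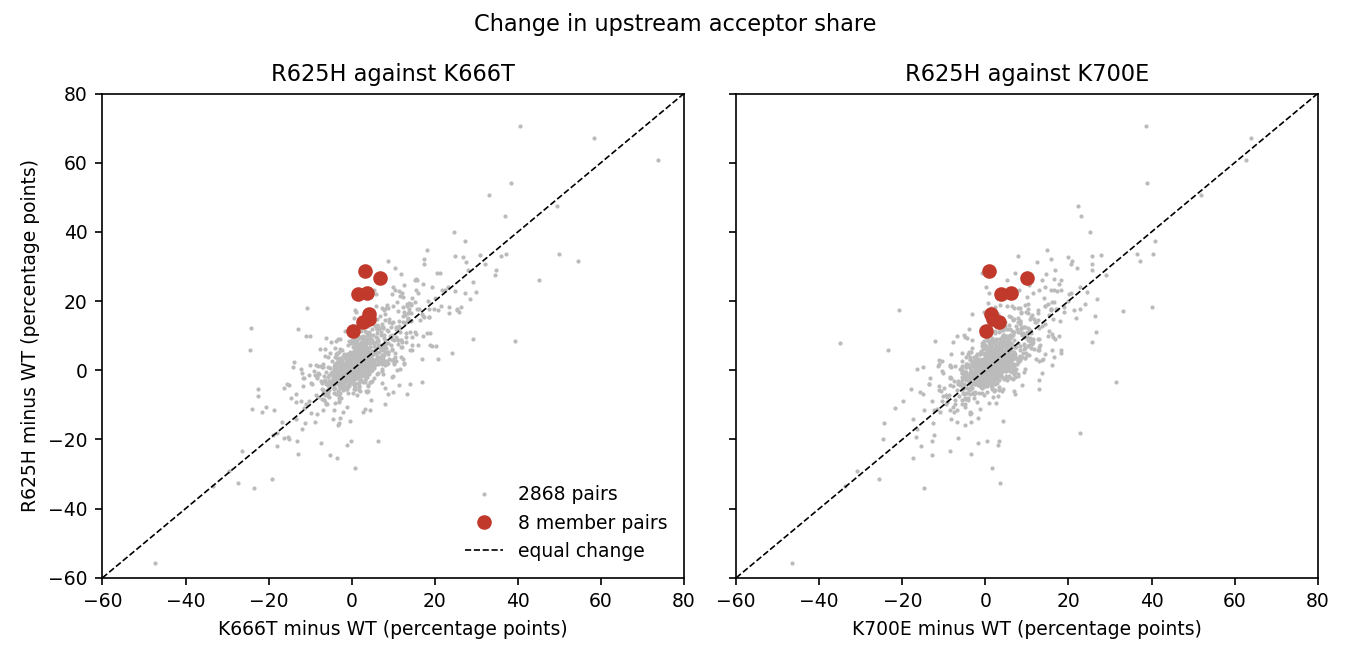
Change in upstream share from WT, in percentage points, in R625H (vertical axis) against K666T (left, horizontal axis) and K700E (right) for 2868 pairs, with the 8 members in red and the line of equal change dashed. The axes share the WT library, and the members lie above the line because they were chosen so, with 11.3 to 28.6 points in R625H.

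Against WT, 123 of the 2868 pairs (4.29%) were called higher in R625H, 83 (2.89%) in K666T and 68 (2.37%) in K700E. R625H was called higher than K666T at 19 pairs (0.662%) and higher than K700E at 34 (1.19%). The same rule turned on the other libraries found 4 pairs called above all 3 others in WT, 0 in K666T and 0 in K700E. Over the full 21532 pairs, where many sites had no read in some library, the counts were 49 in R625H (0.228%), 40 in WT, 35 in K666T and 28 in K700E.

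With multi-mapped reads added, the margins of SETD4 and C1D were 9.57 and 9.84 points, and that of ARMH4 was 9.98 with reads of all donors, each under the 10 points of the rule. By margin, COPS2 was the member just inside the rule. Outside the rule, the pair with the largest margin was HSD17B6 (14 nt). It had shares of 22.9% in WT, 40.9% in K666T, 37.7% in K700E and 57.6% in R625H, from 22 to 53 reads a library. Its adjusted p values were 0.0550 against WT, 0.913 against K666T and 0.468 against K700E (two-sided Fisher's exact test). The CHURC1 pair met the rule without being among the 8, a name given after its values were seen: 1.70% in WT, 11.3% in K666T, 9.17% in K700E and 23.7% in R625H, 16 nt apart. By the excess of R625H over the highest other library, across the 4 libraries, the most similar pairs outside the rule were HSD17B6 (16.7 points), PRR13 (16.7), CD27-AS1 (16.6), CEP131 (15.8) and GCC2 (15.4). Each of these exceeded the 10 points of the rule and missed it on adjusted p. PRR13, CD27-AS1 and CEP131 already used the upstream acceptor for 60.0 to 70.7% of reads in WT. GCC2 was low in WT at 0.758%, as the members were, but had 39.1% in K666T and 39.6% in K700E beside 54.97% in R625H. It missed the rule narrowly, with an adjusted p of 0.0504 against K700E (two-sided Fisher's exact test).

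Features of the pairs were set beside those of the other pairs, without a test. The distance entered the rule as a range of 10 to 30 nt, to which all the pairs compared were held, and within it the members' acceptors were 13 to 20 nt apart, with a median of 15 nt, against 16 nt for the 47 shared pairs and 20 nt for the 2868. All 8 were within 20 nt, as were 80.9% of the shared pairs and 53.3% of the 2868. The distance was a multiple of 3 in 3 of 8 (37.5%), against 42.6% and 43.3%. The upstream acceptor was annotated in 2 of 8 (25.0%), against 36.2% and 41.4%.

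What the added bases do to the reading frame was worked out from one annotated transcript per gene. In CCNYL1 and APPL2 the 15 and 18 nt keep the frame and add 5 and 6 codons to 359 and 664. The 18 bases of APPL2 shown above add no stop codon in the transcript's reading frame, and those of CCNYL1 are not known here. In GAS8 the 14 nt shift the frame and the first stop came after 371 codons instead of 478, 185 nt before the last exon junction. In SETD4 and C1D the shift gave a stop after 251 codons of 440 and after 44 of 180, which lie 445 and 260 nt before the last exon junction. In COPS2 it came after 394 codons of 450, 36 nt before that junction. For SETD4, C1D and COPS2 stops within the added bases could not be counted, so an earlier stop is possible.

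Reads on the downstream acceptor are the other part of the share that chose the members, so their level in R625H is a description set partly by that choice. Scaled to each library's junction reads, R625H over WT on the downstream acceptor had a median ratio of 0.796, from 0.575 in GAS8 to 1.06 in ARMH4, and was below 1 in 7 of 8. Over the 2868 pairs the median ratio was 0.986, with 53.7% of pairs below 1. Over both acceptors together the median ratio was 1.03, from 0.818 in GAS8 to 1.20 in ARMH4. In K666T and K700E the medians for both acceptors were 1.09 and 1.08, with C1D at 1.58 and RHNO1 at 1.42 in K700E. These ratios rest on 1 library each and were not tested.

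C1D showed that the share within R625H varied with the donor. From the most upstream donor (68290089) the upstream acceptor took 0.973% in WT, 4.90% in K666T, 7.25% in K700E and 23.4% (20.2 to 26.9) in R625H. From the donor 13 nt away (68290076) it took 0 of 346 reads in WT, which allows a share of up to 0.867%, 8 of 307 in R625H or 2.61% (1.33 to 5.06), 1.77% in K666T and 0.163% in K700E. From the last donor (68280192) it took 0 of 148 in WT, which allows up to 2.03%, and 2.21% (0.753 to 6.28), 1.27% and 1.40% in R625H, K666T and K700E. Of the 152 upstream reads of C1D in R625H, 141 came from the first donor, and its interval lay above those of the other donors.

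At the ARMH4 and PSMA3-AS1 pair the main donor (58764672) gave 1.62% in WT, 2.10% in K666T, 1.67% in K700E and 11.6% (8.30 to 15.9) in R625H. A nearer donor (58759783) gave 7 of 29 reads in R625H, 24.1% (12.2 to 42.1), and 0 of 31, 0 of 35 and 0 of 29 in WT, K666T and K700E, which allow up to 9.68, 8.57 and 10.3%. The R625H intervals of these donors overlapped. A further donor (58760483) gave 0 of 17 reads in R625H, which allows up to 17.6%, and 0 of 11, 0 of 14 and 0 of 12 in WT, K666T and K700E.

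**Figure D3:**
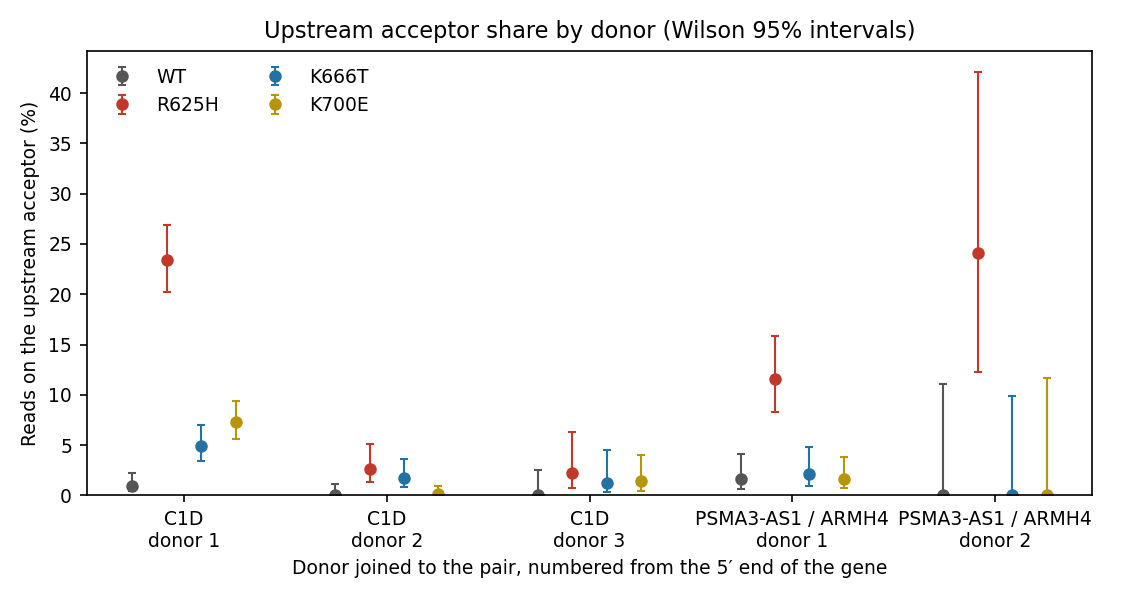
Upstream acceptor share (vertical axis, percent, Wilson 95% intervals) for each donor joined to the C1D pair and to the ARMH4 and PSMA3-AS1 pair (horizontal axis, numbered from the 5′ end), by library. In R625H the first C1D donor stands at 23.4% and the second at 2.61%.

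Splice events of these genes not defined by the member acceptors were tested in the whole table of 190643 acceptor pairs, donor pairs and cassette exons. Among the called ones, the 373-nt form of the RHNO1 exon holds the member pair. Nearly all its inclusion reads lay on the junction leaving the exon, whichever acceptor had been used for entry. There were 108 such events: 13 in GAS8, 8 in CCNYL1, 19 in APPL2, 7 in RHNO1, 23 in SETD4, 1 in ARMH4, 6 in C1D, 17 in COPS2 and 14 in PSMA3-AS1. R625H differed from WT at 1 of 108, where 1.15% of all events were called. K666T differed from WT at 3 (1.21% of all events) and K700E at 5 (1.56%). R625H differed from K666T at 1 (0.812%), R625H from K700E at 4 (1.07%), and K666T from K700E at 0 (1.01%). The calls of K666T and K700E against WT and of R625H against K700E were a larger part of the 108 than of all events. They are few and not all separate, so this is no result about the member genes. Both sets of K700E calls include GAS8 exon forms that share a skipping junction. The R625H against K700E calls also include the RHNO1 exon, whose difference was 6.39 points from its more-read junction alone. No event was called in CCNYL1, APPL2, ARMH4, C1D or PSMA3-AS1.

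SETD4 held an event with another order of libraries in the same exon as its acceptor pair. A donor at position 37416179, 100 nt before the annotated donor at 37416079, took 0 of 54 reads in WT and 0 of 50 in R625H, which allow shares of up to 5.56% and 6.0%. It took 15 of 65 in K666T, 23.1% (14.5 to 34.6), and 20 of 69 in K700E, 28.99% (19.6 to 40.6). In two-sided Fisher's exact tests with Benjamini-Hochberg adjustment over all events, the share rose against WT in K666T (adjusted p = 0.00165) and K700E (9.65e-05), and was lower in R625H than in K666T (0.00437) and K700E (2.86e-04). In this SETD4 exon, then, R625H stood apart at the start and K666T and K700E at the end.

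An 89-nt SETD4 exon (37420606 to 37420694) was included in 86.7% (81.9 to 90.4) of reads in K666T, against 96.8% in WT, 95.7% in R625H and 92.8% in K700E. Its inclusion fell in K666T against WT (two-sided Fisher's exact test, adjusted p = 0.00617), by 10.1 points, and by 9.92 points, under the call, with multi-mapped reads added.

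GAS8 held the 1 event called in R625H against WT. A 14-nt exon (90097584 to 90097597), counted as the mean of its inclusion junctions, was at 7.41% in WT (8 of 108 reads), 29.6% (21.5 to 39.3) in K666T, 25.2% (18.6 to 33.1) in K700E and 31.2% (21.9 to 42.2) in R625H. It rose against WT in R625H, K666T and K700E (two-sided Fisher's exact test, adjusted p = 0.00162, 0.00136 and 0.00609), and the mutant intervals overlapped. The reads were uneven: 15, 44, 52 and 55 reads in WT, R625H, K666T and K700E entered the exon and 1, 4, 6 and 12 left it at its 3′ end. The measurement therefore rests mainly on the acceptor that opens it, and entry reads alone gave 13.0, 45.4, 43.0 and 35.3% in the same order. Once junctions needed an overhang of 20 nt the exon could not be tested in any library, and the calls in member genes went from 1 to 0 in R625H, 3 to 2 in K666T and 5 to 4 in K700E.

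A 55-nt GAS8 exon (90102041 to 90102095) was included in 81.2% in WT, 69.1% in K666T, 56.2% (48.5 to 63.6) in K700E and 79.8% in R625H. In two-sided Fisher's exact tests it fell in K700E against WT (adjusted p = 1.11e-04) and was lower in K700E than in R625H (0.00248). A 247-nt version of the exon shares its start and skipping junction, so its own K700E calls (adjusted p = 0.0111 against WT and 0.0244 against R625H by the same Fisher's exact test) are not separate observations.

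In COPS2, an annotated acceptor at 49426306 lies 66 nt before an unannotated one at 49426240. The annotated one took 14 of 22 reads in WT, 28 of 36 in R625H, 27 of 34 in K666T and 28 of 28 in K700E. The unannotated one took 8, 8, 7 and 0 reads in the same order. Shares of the annotated acceptor were 63.6, 77.8, 79.4 and 100%, and its share rose in K700E against WT (two-sided Fisher's exact test, adjusted p = 0.0119). The difference of 36.4 points, from few reads, became 19.0 with multi-mapped reads added, and the pair was not testable at a minimum of 50 reads. In RHNO1, the exon that holds the member pair was skipped by 82 reads in K700E, against 42 in WT, 36 in R625H and 50 in K666T. Counted through its longest form of 373 nt, inclusion was 83.0, 85.9, 80.9 and 75.6% in the order WT, R625H, K666T and K700E, higher in R625H than in K700E (two-sided Fisher's exact test, adjusted p = 0.0410). Only 1, 2, 0 and 4 reads entered that longest form, against 408 to 503 leaving the exon. From the reads leaving it alone, inclusion was 92.4% (89.6 to 94.4) in R625H and 86.0% (82.9 to 88.6) in K700E, a difference of 6.39 points that is under the call. With multi-mapped reads added the difference of 10.3 points became 9.76, also under it.

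**Figure D4:**
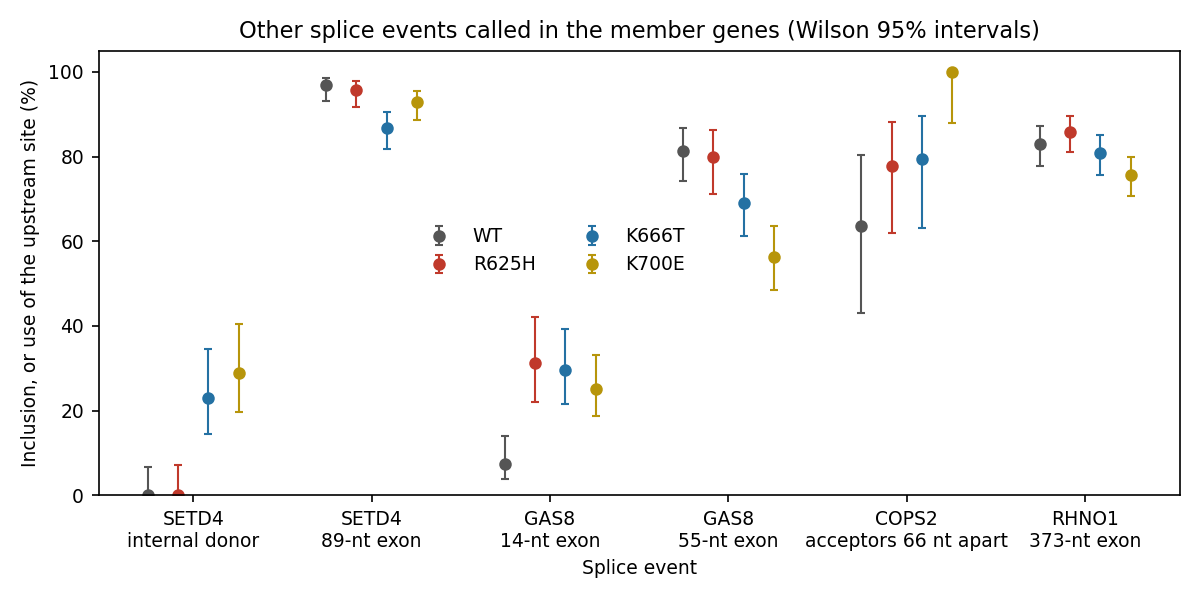
Inclusion of an exon, or use of the upstream site, in percent (vertical axis, Wilson 95% intervals) for 6 called events of the member genes not defined by their acceptor pairs (horizontal axis), by library. The RHNO1 exon holds the member pair. The SETD4 internal donor was at 0 in WT and R625H and at 23.1% and 28.99% in K666T and K700E.

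The members' total expression stayed within 2-fold of WT in each mutant library. On the log2 ratio of CPM with a prior count of 10, 0 of 8 members were at least 2-fold apart from WT in R625H, K666T or K700E, where 0.680, 0.700 and 1.74% of 14847 genes were. The members' median log2 ratio was 0.00 in R625H, 0.05 in K666T and -0.03 in K700E, against -0.02, 0.00 and 0.00 over all genes measured. At such low shares over all genes, 0 of 8 is no result about the members. Some counting intervals lay off 0, as in K700E for GAS8, 0.44 (0.36 to 0.51), and ARMH4, -0.49 (-0.62 to -0.37). Others covered it, as for GAS8 in R625H (-0.08 to 0.09). These ratios carry no test.

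ARMH4 had the lowest values of the 8, with 14.5 CPM in WT, 11.7 in K666T, 10.3 in K700E and 11.3 in R625H. Its log2 ratios were -0.36 in R625H, -0.30 in K666T and -0.49 in K700E. Giving CPM from here in the order WT, R625H, K666T and K700E, PSMA3-AS1, which overlaps it, had 16.9, 17.1, 18.0 and 17.0. GAS8 had 25.6, 25.6, 31.4 and 34.7 CPM, so its total in R625H equalled that of WT while its acceptor use did not. APPL2 had 35.8, 31.9, 32.1 and 29.2 CPM, below WT in each mutant library. CCNYL1 had 37.8, 43.0, 44.3 and 37.2 CPM, and SETD4 had 27.0, 27.2, 29.9 and 31.3. RHNO1 had 41.4, 44.8, 42.8 and 37.7 CPM, its lowest value in K700E. C1D had 37.5, 39.9, 39.04 and 41.7 CPM and COPS2 had 137, 130, 137 and 134. The members with a shifted frame thus showed log2 ratios in R625H of 0.00 (GAS8), 0.01 (SETD4), 0.09 (C1D) and -0.08 (COPS2).

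**Figure D5:**
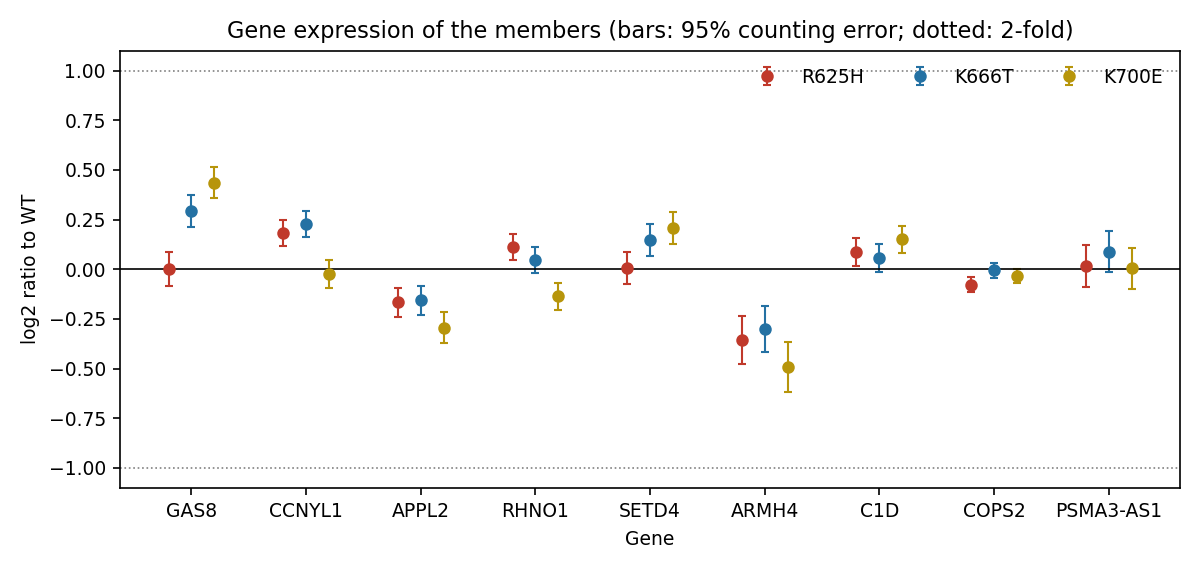
Log2 ratio of CPM to WT (vertical axis, bars give 95% counting error) for the 8 genes and PSMA3-AS1 (horizontal axis) in R625H, K666T and K700E. All points lie between the dotted lines at 2-fold, with ARMH4 lowest at -0.36, -0.30 and -0.49.

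Partners of the members were read from lists of genes that work with each protein. In these lists 0 genes were at least 2-fold apart from WT in any mutant library. Of 14847 genes measured, 0.680, 0.700 and 1.74% were in R625H, K666T and K700E, so a count of 0 is no result about the partners. Among 11 ATR and 9-1-1 checkpoint genes around RHNO1, log2 ratios in R625H ran from -0.15 (the kinase ATR) to 0.17 (the clamp subunit HUS1), with a median of 0.03. The 9 other COP9 subunits around COPS2 ran from -0.22 (COPS7A) to 0.18 (COPS5, the catalytic subunit), with a median of 0.00. The 16 exosome genes around C1D ran from -0.16 (EXOSC1) to 0.17 (EXOSC7), with a median of 0.04. RHNO1, COPS2 and C1D themselves had ratios within those ranges.

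The list around GAS8 held 10 genes, mostly of the nexin-dynein regulatory complex, and LRRC6 among them was not found by name. Of the 10, 5 were measured. They ran from -0.34 (DRC3) to 0.39 (CCDC65) in R625H, with a median of 0.00, and CCDC65 rested on 72, 88, 124 and 101 reads. The 7 genes around CCNYL1 ran from -0.21 (CDK15) to 0.13 (CDK17), with a median of -0.14. The 11 genes around APPL2 ran from -0.23 (AKT2) to 0.27 (RAB5A), with a median of 0.01. The 10 SET domain relatives of SETD4 ran from -0.16 (SETD6) to 0.18 (KMT5A), with a median of 0.06. The 7 SF3b subunits ran from -0.10 (SF3B3) to 0.17 (PHF5A), with a median of 0.08. CCDC65 and DRC3 had the widest ratios of these lists and the fewest reads among the genes named, apart from CDK15 with 62 to 92.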

How the data were processed

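RNA from 4 HEK293T libraries was read as stranded 100-bp pairs, per the labels' protocols. Per gene the authors deposited raw counts of reads and, per splice junction, counts of uniquely mapped and multi-mapped reads and the longest overhang of a spliced read in nt (another deposited value, in bases). Per the submitters' processing notes, STAR 2.5.3a, HTSeq and hg19/GRCh37 were used, with settings that the sources used here do not give.

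Unique reads were summed over the donors that reach both acceptors. Shares were compared between libraries by two-sided Fisher's exact tests, with Benjamini-Hochberg adjustment over all pairs or, separately, all events of 3 to 100 nt and exons of 10 to 500 nt. A call needed an adjusted p under 0.05, 10 points and 20 reads in each library. The code was tested on simulated data. Gene names and annotation came from matching intron lengths and order of GENCODE 29 (GRCh38) to the hg19 junctions: of 18210 protein-coding genes that had 2 or more introns, 16012 matched, against 135 genes of any type on a wrong chromosome. Gene counts were the stranded column, with the other strand at 5.72 to 5.97%. Rows naming no gene were left out: unmapped 8.84 to 17.3%, multimapping 4.01 to 4.40%, no feature 5.01 to 5.87% and ambiguous 3.04 to 3.43% of pairs. Names were found for 51996 of 57820 gene IDs. CPM ratios used a prior count of 10 and genes with at least 1 CPM in a library, without a test. Wilson 95% intervals and the limit of 3 reads for a share of 0 cover counting error only, and reads without molecular identifiers are not independent molecules.

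Members and gene lists were chosen with earlier results of these data known. The text names the 8 members, the 5 most similar pairs, the member with the smallest margin and the pair outside the rule with the largest. It also names each called other event and, per partner list, the genes with the largest and smallest R625H ratio. Python 3.11.15, scipy 1.17.1 and numba 0.67.0 were used, with edgeR 4.0.16 and DESeq2 1.42.0 for alternative scaling of counts.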

Additional observations from a re-analysis of the deposited data

How the results depend on the processing

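The number of pairs called higher in R625H than in the 3 other libraries was 10 in the main setting, 25 with a difference of at least 5 points and 2 with at least 20 points. With at least 20 points, the GAS8 pair and the further C1D pair remained of those named above. Over 64 checks of the 8 member pairs, 53 kept the call, 11 lost it and 0 changed direction. Each check reused the reads that chose the members. The member pairs had at least 117 reads in a library, so minimums of 10 or 50 reads and a difference of 5 points could hardly remove a call. Outside the 20-point setting, the losses were margins just under 10 points: SETD4 (9.57) and C1D (9.84) with multi-mapped reads added, and ARMH4 with reads of all donors (9.98) or with each donor apart (9.45, a setting chosen after the data were seen). Other events of the member genes called in R625H against WT numbered 1 in the main setting, 2 with at least 5 points, 2 with multi-mapped reads and 0 with an overhang of at least 20 nt. The RHNO1 exon difference between R625H and K700E was 6.39 points from its more-read junction alone, a setting chosen after the data were seen. With multi-mapped reads the counts went from 3 to 5 in K666T and from 5 to 13 in K700E. Partner genes counted in K666T went from 0 to 1 at 1.5-fold, and in K700E from 0 to 2 without the filter on low counts. The cause of these moves was not tested, apart from the thresholds' own construction. Other scalings moved the all-gene median by under 0.03 (log2), and 0 members were 2-fold apart under each. Pairs with fewer than 20 reads in a library were not analysed here, and shares near 5% rested on few reads. No paired analysis was possible because each group had 1 library.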
